A study of Mus musculus with 4 samples.

Results

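Some let-7 genes lie in one transcript with a miRNA of the miR-99/100 family and one of the miR-125 family, and the 7 array miRNAs described here are strands of those neighbours. They were taken from the array by name, out of 577 miRNA names. Beside let-7e on chromosome 17 lie 4 of them, mmu-miR-99b, mmu-miR-99b*, mmu-miR-125a-5p and mmu-miR-125a-3p. The other 3, mmu-miR-99a, mmu-miR-100 and mmu-miR-125b-5p, are paralogs that come from the let-7c-1 locus on chromosome 16 and the let-7a-2 locus on chromosome 9. The mouse prefix mmu is left out below. The samples were A3-1 mouse embryonic stem cells treated with siRNA to Lin28a (siLin28a) or with siRNA to GFP as a control (siGFP), with 2 replicates of each. All cells were grown in medium containing serum and the cytokine LIF, which maintains the undifferentiated state, and were harvested 48 h after treatment. Each target was addressed by a single siRNA duplex, per the labels. From each replicate, 100 ng of total RNA was labelled with Cy3 and hybridised to 1 Agilent mouse miRNA array. Nothing states that the replicates were separate cultures, so every p-value below reflects the spread among these samples only, and that spread may be technical.

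LIN28A is an RNA-binding protein that is abundant in embryonic stem cells and holds back the maturation of let-7. It binds the terminal loop of the let-7 precursor, where a GGAG motif is part of its site, and recruits an enzyme that adds uridines to the precursor. A transcript that carries let-7 together with miR-99/100 and miR-125 hairpins is cut into separate precursors, so the neighbours of let-7 can mature on their own. miR-125 is the mammalian family of lin-4, which with let-7 times larval development in Caenorhabditis elegans, and Lin28 mRNA is a known target of both miR-125 and let-7. miR-99/100 miRNAs are known to repress Mtor. The comparison of siLin28a with siGFP shows whether the levels of these neighbours differed when Lin28a was targeted.

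The mature sequences are shown because the seed (bases 2 to 8, in capitals), which pairs with target mRNAs, sorts the members into families. They are RefSeq sequences of build GRCm38.p6, written 5′ to 3′. All 7 members were matched.
miR-99b: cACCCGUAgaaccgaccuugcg
miR-99a: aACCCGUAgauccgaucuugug
miR-100: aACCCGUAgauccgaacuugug
miR-99b*: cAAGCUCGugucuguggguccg
miR-125a-5p: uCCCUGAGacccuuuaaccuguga
miR-125b-5p: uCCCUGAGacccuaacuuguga
miR-351: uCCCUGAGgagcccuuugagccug
miR-125a-3p: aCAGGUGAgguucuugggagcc
let-7e: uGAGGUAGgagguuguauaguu
The first 3 share the seed ACCCGUA, which no other mouse miRNA in the RefSeq table carries. miR-125a-5p and miR-125b-5p share the seed CCCUGAG with miR-351, the only further array miRNA that has it. The seeds of let-7e, miR-99b* and miR-125a-3p differ from both.

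The paralogs differ mainly in the 3′ part of the strand, which is the part the array reads. Counted from 1 at the 5′ end and with the base of miR-99b first, miR-99a differs by C1A, A11U, C16U and C21U, and miR-100 by C1A, A11U, C16A and C21U. Each is 81.8% identical to miR-99b, and they differ from each other by U16A, with the base of miR-99a first. The longest probe target of miR-99b starts at base 7, so 3 of the 4 differences to either paralog lie inside it. miR-125b-5p differs from miR-125a-5p by C19U, with the base of miR-125a-5p first, and lacks 2 further bases, which leaves 87.5% identity.

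The 4 strands beside let-7e come from a short stretch. In GRCm38.p6, the miR-99b hairpin lies at chr17:17830188-17830257, the let-7e hairpin at chr17:17830352-17830444 and the miR-125a hairpin at chr17:17830812-17830879. The whole stretch covers 692 bp on the plus strand within the span of Spaca6, a protein-coding gene. At the other loci the members lie much farther apart. miR-99a, let-7c-1 and the second copy of miR-125b span 47408 bp of chromosome 16, and no gene in the annotation table holds them. miR-100, let-7a-2 and the first copy of miR-125b span 50578 bp of chromosome 9 within Mir100hg, a long non-coding RNA gene. miR-125b-5p has the same sequence at both copies, so its signal cannot be assigned to either. In the array's own coordinates, of build mm9, the probe target of let-7e ends 172 bp after that of miR-99b, and those of miR-125a-5p and miR-125a-3p end 625 and 661 bp after it. The mature strands in RefSeq have the same spacing.

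The hairpins of let-7e and miR-125a are shown next, with GGAG in capitals, because the motif bound by LIN28A is placed differently in the 2 neighbours.
let-7e hairpin: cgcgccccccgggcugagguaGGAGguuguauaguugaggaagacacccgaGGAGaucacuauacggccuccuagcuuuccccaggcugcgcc
miR-125a hairpin: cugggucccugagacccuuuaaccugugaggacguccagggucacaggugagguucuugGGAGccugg
In the let-7e hairpin GGAG starts at base 22, inside the guide strand, and at base 52, between the arms. In the miR-125a hairpin it starts at base 60, inside miR-125a-3p, and it is not found between the arms. The search for the letters GGAG ran over the transcribed strand of the hairpins. Between the arms they occurred in 2 of the 2 let-7 hairpins of these loci in the table (let-7e and let-7c-1) and in 0 of the 4 member hairpins in it (miR-125a, miR-99a, miR-100 and the first copy of miR-125b). Among all 644 mouse hairpins searched, 52 (8.10%) had GGAG between the arms. The hairpins of let-7a-2, miR-99b and the second copy of miR-125b were not among those searched. A match is a run of letters and does not show binding.

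Signals are reported first as the total gene signal of Agilent's software, a sum over a miRNA's spots in linear intensity units that is neither scaled between arrays nor floored, and that can be negative. The software also calls each miRNA detected or not on each array. It called 263 and 289 of the 577 names detected on the siLin28a arrays and 246 and 257 on the siGFP arrays, and the scale factor of the fit described below was 248 and 265 for siLin28a and 226 and 220 for siGFP. Both siLin28a arrays were thus somewhat brighter, and unscaled signals carry that. A difference of signal in these bulk cultures cannot tell fewer cells that hold a miRNA from less of it per cell. Lin28a mRNA has no probe on a miRNA array, so how far it was knocked down is not known from these data. With 4 arrays in all, precision is limited by their number.

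miR-99b and miR-125a-5p, here called the guide strands of their hairpins, had higher signals on both siLin28a arrays than on both siGFP arrays. The name guide is not taken from these signals, in which miR-125a-3p was brighter than miR-125a-5p on every array. miR-99b had signals of 91.9 and 127 with siLin28a, against 43.2 and 58.4 with siGFP. The groups did not overlap, and the means were 109 ± 24.6 with siLin28a and 50.8 ± 10.8 with siGFP (SD, n = 2 each), a ratio of 2.15. After scaling between arrays that ratio was 1.77. miR-125a-5p had signals of 40.7 and 73.6 with siLin28a, against 21.8 and 25.8 with siGFP. Its groups did not overlap either, and siLin28a replicate 2 stood well above replicate 1. The means were 57.1 ± 23.2 with siLin28a and 23.8 ± 2.79 with siGFP (SD, n = 2 each), a ratio of 2.40, or 1.97 after scaling. The error that the software gives for a single array was 5.26 to 9.65 for miR-99b and 4.45 to 6.59 for miR-125a-5p.

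The strands from the opposite arms were also read, one of them bright and the other near background. miR-125a-3p had signals of 152 and 187 with siLin28a, against 132 and 106 with siGFP. The means were 170 ± 24.8 with siLin28a and 119 ± 18.0 with siGFP (SD, n = 2 each), a ratio of 1.42. With the arrays scaled the ratio was 1.17, and the groups overlapped, with 141 and 167 for siLin28a and 146 and 117 for siGFP. miR-99b* was dim, with 14.8 and 20.1 on the siLin28a arrays and 10.9 and 9.48 on the siGFP arrays. The software called it detected on the 2 siLin28a arrays and not on the siGFP arrays, a pattern found for 14 of all 577 names (2.43%). Its means were 17.5 ± 3.72 with siLin28a and 10.2 ± 1.01 with siGFP (SD, n = 2 each), and no ratio is given against a signal that was not detected.

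**Figure D1:**
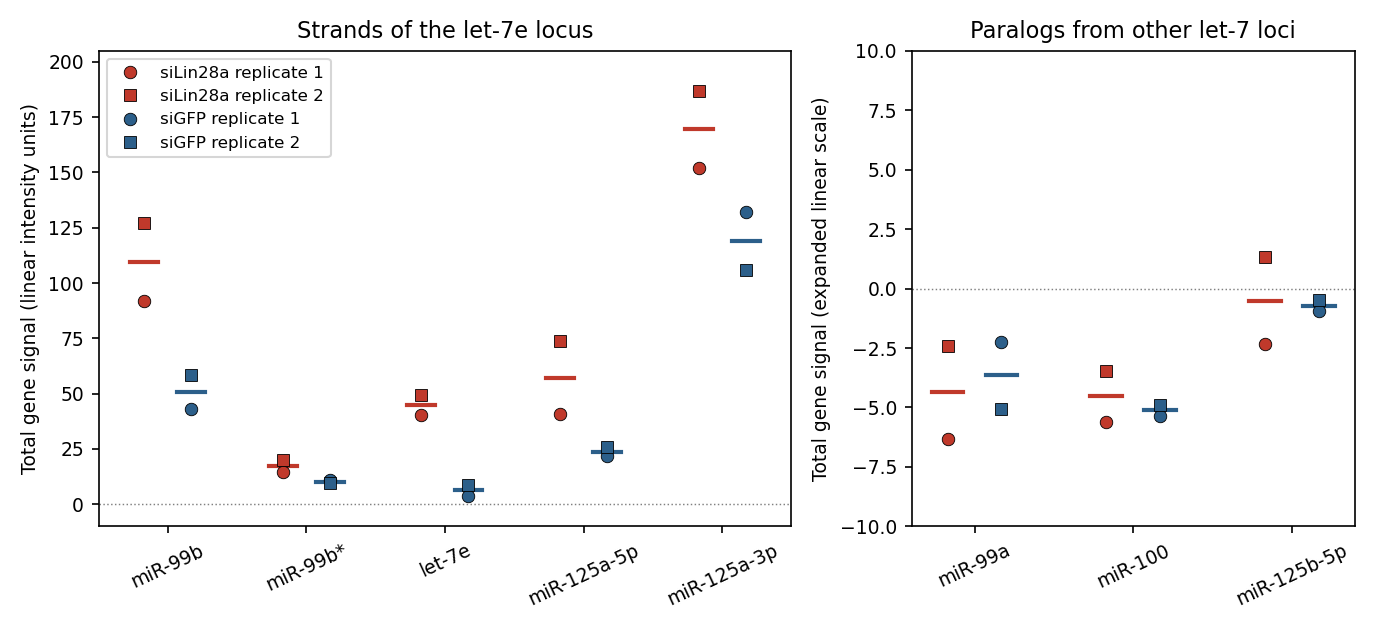
Total gene signal per array in linear intensity units, not scaled between arrays, for the strands of the let-7e locus (left) and the paralogs from other let-7 loci (right, on an expanded axis). Points are arrays and bars are group means. Both siLin28a arrays lie above both siGFP arrays for each strand on the left, while the paralogs scatter around or below 0 on all 4 arrays.

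The 3 paralogs gave no detected signal in either group. miR-99a had -6.32 and -2.42 with siLin28a and -2.23 and -5.06 with siGFP. miR-100 had -5.61 and -3.46 with siLin28a and -5.36 and -4.88 with siGFP. miR-125b-5p had -2.34 and 1.33 with siLin28a and -0.964 and -0.49 with siGFP. In each case the groups overlapped, and the software's error for a single array, 3.38 to 4.27, was of the same order as the signals. Over all names, 285 of 577 (49.4%) were detected on no array and 242 (41.9%) on all 4, so neither state is rare. Of the 4 strands beside let-7e, 3 were detected on all 4 arrays. Both siLin28a arrays lay above both siGFP arrays for 4 of these 4 strands and for 0 of the 3 paralogs, against 227 of all 577 names (39.3%) in these unscaled signals. A level below detection leaves room for a difference that could not be detected here.

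The fit used log2 values of probe signals, each array divided by its 75th percentile over the 425 probes that passed as well above background on all 4 arrays. They were floored at -3.40, a level that corresponds to a mean spot signal of 20.8 to 25.1 units, not to a total gene signal. Of the 7 members, 3 passed its filter on dim probes, and all 3 were well above background on all 4 arrays. The other 4 (miR-99b* and the paralogs) had no probe that passed and were not tested. With limma and a threshold of 0.05 on the adjusted p, siLin28a arrays were higher for 2 of 231 tested miRNAs (0.866%) and lower for 0 (0%), and neither of the 2 is a member. At an unadjusted p below 0.05, 31 miRNAs (13.4%) were higher, and miR-99b and miR-125a-5p are among them. Both siLin28a arrays lay above both siGFP arrays for 3 of the 3 tested members, against 71 of 231 miRNAs (30.7%). As many miRNAs, 71 (30.7%), lay the other way.

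On this scale miR-99b had -1.96 and -1.61 with siLin28a, against -2.87 and -2.48 with siGFP. The lowest siLin28a value lay 0.52 above the highest siGFP value, more than the gap between replicates, which was 0.35 with siLin28a and 0.39 with siGFP. The difference was 0.89 (SE 0.22), a 1.85-fold higher level with siLin28a, and it did not pass the threshold (limma adjusted p = 0.159). miR-125a-5p had -2.59 and -1.90 with siLin28a, against -3.28 and -3.10 with siGFP, so its siGFP values lay just above the floor. The gap between the groups was 0.51, smaller than the 0.68 between the siLin28a replicates. The difference was 0.95 (SE 0.27), a 1.93-fold higher level with siLin28a, and it did not pass either (limma adjusted p = 0.166). Among the 219 miRNAs well above background on some array of each group, these were the largest positive difference, that of miR-125a-5p, and the third largest, that of miR-99b. miR-467a, with a difference of 0.92 and an SE of 0.61, stood between them. This ranking leaves out 12 tested miRNAs that were well above background on no siGFP array. Of those, let-7f, let-7a and let-7g had larger floored differences, 1.17, 1.12 and 1.01, and the others had smaller ones.

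miR-125a-3p had -1.25 and -1.07 with siLin28a, against -1.29 and -1.62 with siGFP. The groups were 0.04 apart, less than the spread of either pair of replicates. The difference was 0.29 (SE 0.17), or 1.23-fold, with a limma adjusted p of 0.342, and it ranked 44 among the 219. The median difference over all 231 tested miRNAs was 0. A p above the threshold does not show that the 2 groups were alike.

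**Figure D2:**
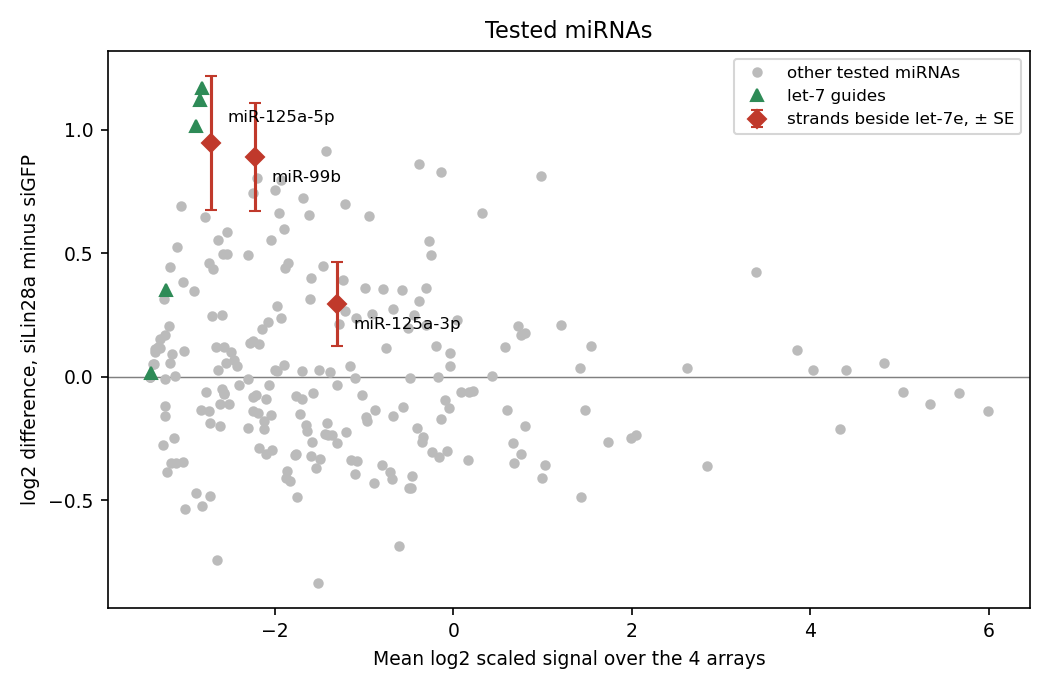
Difference of log2 scaled signal, siLin28a minus siGFP, against the mean level over the 4 arrays for the 231 tested miRNAs. Diamonds with SE bars are the 3 tested strands beside let-7e and triangles are tested let-7 guides. miR-125a-5p and miR-99b stand near the top among dim miRNAs, at 0.95 and 0.89, and miR-125a-3p lies at 0.29.

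Because the 2 arms of the miR-125a hairpin are read on the same array, their log2 values can be set against each other within each array. miR-125a-5p minus miR-125a-3p was -1.33 and -0.83 with siLin28a and -1.99 and -1.48 with siGFP. These contrasts do not depend on a scaling that divides each array by 1 factor. Their means differed by 0.65, the siLin28a arrays being higher. This order depended on how dim signals were treated. With the floor at 2 times its value the differences were 0.25 for miR-125a-5p and 0.29 for miR-125a-3p, with normexp background correction -0.031 and 0.015, and with normexp fitted without outlier spots 0.29 and 0.14. The contrast of miR-99b with miR-125a-3p was -0.71 and -0.54 with siLin28a and -1.58 and -0.86 with siGFP, and its means differed by 0.60. The contrast between both guides, miR-99b minus miR-125a-5p, had means that differed by -0.06. It was 0.63 and 0.29 with siLin28a and 0.41 and 0.61 with siGFP, so the groups overlapped. These contrasts are described and were not tested. Probes differ in brightness, so only the change of a contrast between groups can be read.

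Each member was read by 20 spots, on 2 to 4 probes that differ in length. Probe positions are those of the array's mm9 coordinates, on the plus strand. The 2 probes of miR-99b (chr17:17967165-17967179 and 1 base longer at its start) gave nearly the same difference. The 15-base probe had mean spot signals of 54.5 and 76.2 with siLin28a, against 26.7 and 32.2 with siGFP, a log2 difference of 0.93. The 16-base probe had 74.5 and 98.6 with siLin28a, against 35.7 and 48.0 with siGFP, a log2 difference of 0.85. In both probes each siLin28a array exceeded each siGFP array.

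Only 1 of the 2 probes of miR-125a-5p passed the filter. This 19-base probe (chr17:17967786-17967804) had mean spot signals of 41.3 and 70.9 with siLin28a, against 23.2 and 25.7 with siGFP. On siGFP replicate 1, 50% of its spots were well above background, the least that the filter accepts. The SD over its spots was 4.05 and 11.6 with siLin28a and 3.51 and 1.88 with siGFP. The 18-base probe had 15.9 and 30.6 with siLin28a, against 8.34 and 9.66 with siGFP, and was well above background on siLin28a replicate 2 alone. It showed the same order of the groups without entering the fit.

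The 4 probes of miR-125a-3p (13 to 16 bases, chr17:17967825-17967840) all passed, with log2 differences of 0.32, 0.31, 0.23 and 0.32 by length. The 4 probes of miR-99b* (12 to 15 bases, chr17:17967203-17967217) had mean spot signals of 3.93 to 17.8, and none passed. Its 15-base probe had 13.8 and 17.8 with siLin28a, against 10 and 8.46 with siGFP, and only siLin28a replicate 2 had most of its spots (80%) well above background.

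The probes of the paralogs stayed near 0 on the arrays where miR-99b and miR-125a-5p gave signal. Mean spot signals were -5.12 to 0.899 for miR-99a (chr16:77599188-77599206), -4.70 to -1.58 for miR-100 (chr9:41339523-41339541) and -2.33 to 2.50 for miR-125b-5p (chr16:77646529-77646545). The targets of miR-99b and miR-125a-5p thus gave no visible signal on the probes of their paralogs, to which they are 81.8% and 87.5% identical over the mature strand.

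**Figure D3:**
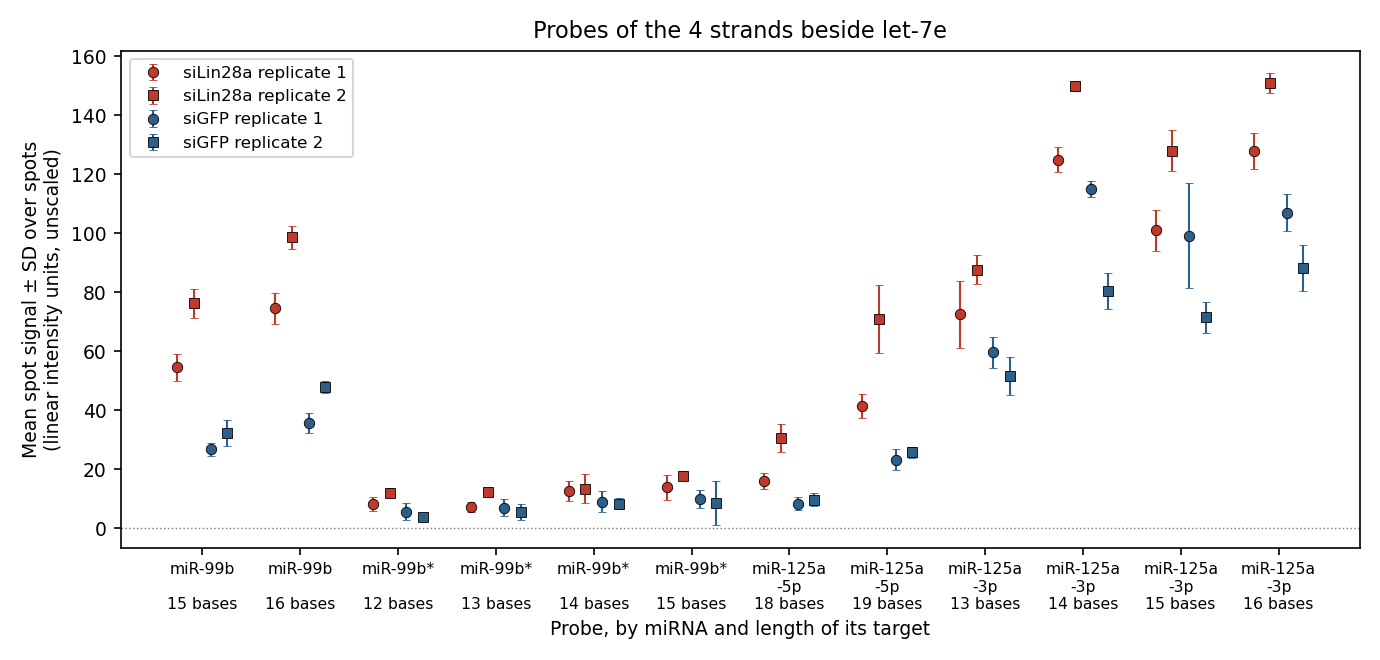
Mean signal over the spots of each probe of the 4 strands beside let-7e, with the SD over spots as bars, in unscaled linear intensity units. Probes are ordered by miRNA and by the length of their target. Each probe of miR-99b and miR-125a-5p shows both siLin28a arrays above both siGFP arrays, and the probes of miR-99b* lie between 3.93 and 17.8.

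let-7e had total gene signals of 40.2 and 49.6 with siLin28a, against 3.77 and 8.89 with siGFP. It was detected on neither siGFP array, its probes were at the floor there, and its floored log2 difference of 0.35 (SE 0.08, limma adjusted p = 0.159) is therefore understated. miR-99b and miR-125a-5p were called detected on both siGFP arrays, unlike let-7e, which lies between them. Of the let-7 guides at the other loci, let-7c had 5.96 and 8.88 with siLin28a and 4.30 and 4.67 with siGFP and was not detected. It has 2 genes, on chromosomes 15 and 16, and its probes are placed on chromosome 15 in the files, so this signal is no measure of the chromosome 16 locus alone. let-7a, which also has several genes, had 78.1 and 78.3 with siLin28a, against 10.5 and 9.59 with siGFP, and rose in the fit (limma adjusted p = 0.021). That call did not hold throughout, since 0 miRNAs were called higher with scaling over all probes, with either normexp setting, with probes well above background on all arrays, with the floor at 2 times its value, or without either siGFP array. The let-7 guides, which share the seed of let-7e, numbered 9 on the array. Of these 5 were tested and 2 rose. All 5 owed their place in the test to the siLin28a arrays, since none was well above background with siGFP. Their siGFP values were at the floor, so no difference below 0 was possible and no spread between siGFP replicates entered the fit. Their SE and adjusted p were thus set in part by the floor. The 2 calls and the median log2 difference of these guides, 1.01, are therefore descriptions only. No let-7 guide was detected on all 4 arrays.

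The remaining strands from these loci that are on the array were not detected. Of the 4 opposite strands looked for from the hairpins of the paralogs, 2 (miR-99a* and miR-100*) are not on the array. The opposite strand of let-7c-1, whose target ends 777 bp from that of miR-99a, had -5.18 and -4.03 with siLin28a and -3.81 and -4.09 with siGFP. None of the 7 opposite strands of let-7 hairpins on the array was detected on any array. miR-125b-3p, the opposite strand of the first copy of miR-125b, had -1.55 and 1.54 with siLin28a and -1.03 and -3.52 with siGFP. miR-125b*, that of the second copy, had -0.265 and 1.73 with siLin28a and 0.276 and 0.0895 with siGFP. miR-351, which shares the miR-125 seed, had -1.41 and 0.423 with siLin28a and -3.49 and 1.24 with siGFP. On these arrays the seed CCCUGAG was therefore detected in miR-125a-5p alone, and the seed ACCCGUA in miR-99b alone.

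The tested miRNAs with profiles nearest to those of the 2 guides were found by the root mean square difference of log2 values, each centred on its own mean over the 4 arrays. For miR-99b, among 228 miRNAs that are not members, the nearest were miR-34a at 0.06, miR-344 at 0.19 and miR-34b-5p at 0.22, against a median of 0.51. For miR-125a-5p they were miR-34a at 0.14, miR-344 at 0.15 and miR-721 at 0.25, against a median of 0.55. The guides were 0.14 apart from each other, and miR-125a-3p was 0.40 from miR-99b and 0.41 from miR-125a-5p. miR-34a had a difference of 0.82 (limma adjusted p = 0.159), so it did not pass the threshold either. With 4 arrays, a profile amounts to little more than the group difference and the replicate gaps.

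Markers of other cell types were read on the same arrays. The 6 embryonic stem cell miRNAs of the miR-290 to miR-295 cluster were detected on all 4 arrays, with summed signals of 64166 and 66612 for siLin28a and 58098 and 57752 for siGFP and a median log2 difference of -0.06. The 6 neural miRNAs summed to 236 and 325 with siLin28a and 201 and 250 with siGFP. Of them miR-9, miR-9* and miR-137 were not detected, and the 3 tested had a median difference of 0.12. The 8 fibroblast or feeder miRNAs on the array summed to 482 and 457 with siLin28a and 429 and 361 with siGFP. Of them 4 were detected on all arrays, miR-145, miR-199a-5p and miR-199b were not detected, and the 4 tested had a median of 0.05. The 4 muscle miRNAs were not detected, with sums of -10.4 and -1.98 with siLin28a and -11.2 and -12.5 with siGFP. The 4 blood miRNAs summed to 157 and 110 with siLin28a and 125 and 99.6 with siGFP, with miR-223 not detected. The 5 miRNAs of primed pluripotent cells (miR-302a to miR-302d and miR-367) summed to 42.9 and 20.0 with siLin28a and 27.6 and 10.5 with siGFP, and 4 of them were not detected. None of the tested markers passed the threshold. These sums are not scaled between arrays. The neural, embryonic stem cell and muscle sums were highest on siLin28a replicate 2, as were the signals of all 4 strands beside let-7e. That array also had the largest scale factor, 265. The fibroblast or feeder, blood and primed pluripotent cell sums were highest on siLin28a replicate 1. The part of these cell types in the results was not tested.

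**Figure D4:**
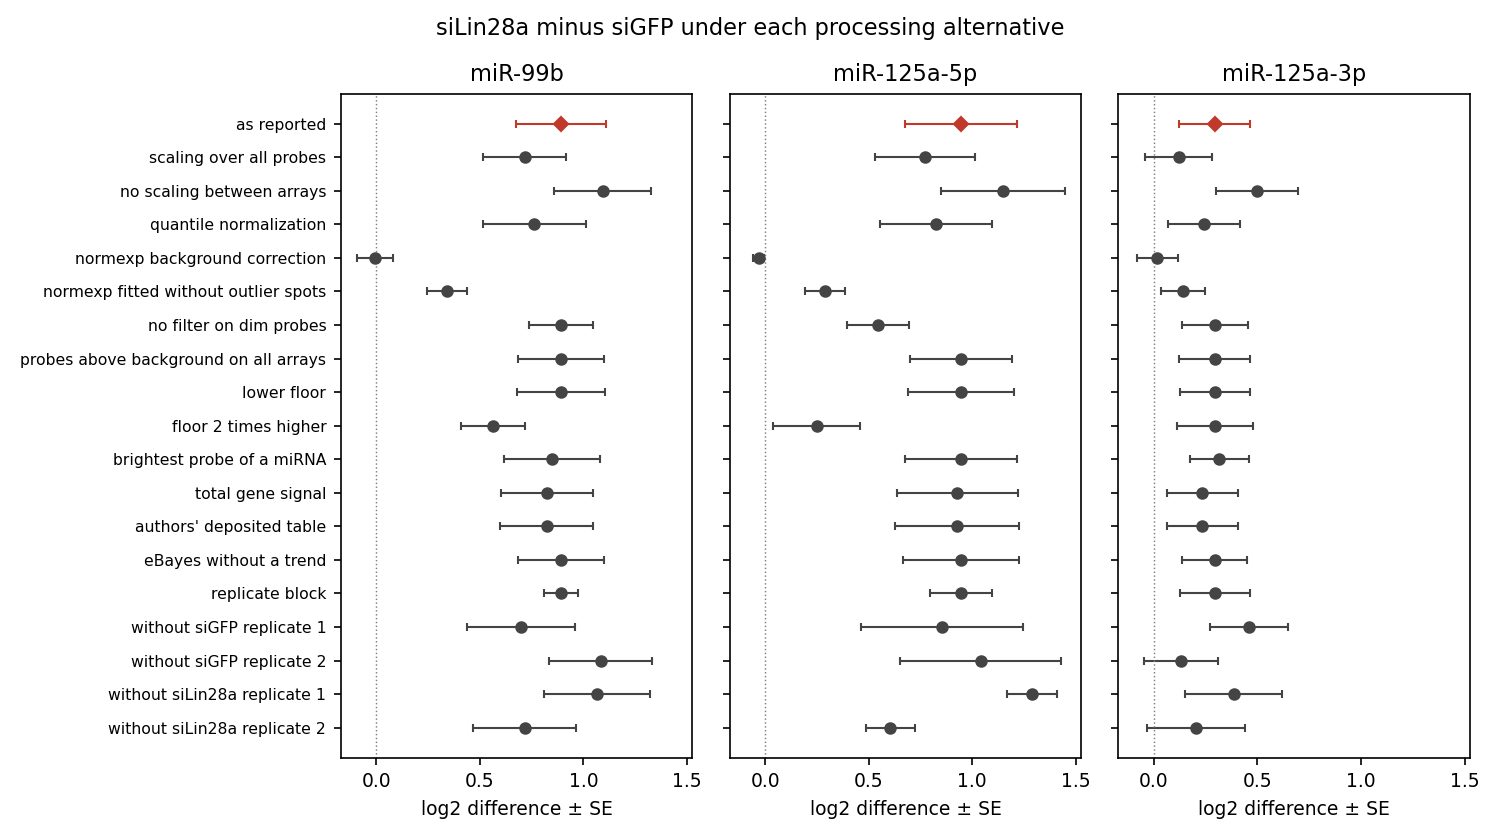
Difference of log2 signal with its SE, siLin28a minus siGFP, for the 3 tested members as reported (diamond) and under each processing alternative and each omission of an array (circles). For miR-99b and miR-125a-5p the values lie between 0.25 and 1.29, except for -0.0069 and -0.031 under the normexp background correction. For miR-125a-3p they run from 0.015 to 0.50.

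The sizes of these differences depended on how the dim signals were treated. With a model-based background correction, normexp, the difference was -0.0069 (SE 0.087) for miR-99b and -0.031 (SE 0.026) for miR-125a-5p. Under that correction the undetected probes of siGFP replicate 2 had a median of 125 units, against 60.8 to 62.3 on the other 3 arrays. With the outlier spots left out of the normexp fit, all 4 medians were 59.7 to 60.4 and the differences 0.34 and 0.29. This alternative was chosen after the data were seen. Both normexp settings added an offset of 50 units to every spot, which the medians include. An added offset makes log2 differences between dim spots smaller, so these sizes cannot be set directly against the others. With the floor at 2 times its value, the difference was 0.56 for miR-99b and 0.25 for miR-125a-5p. With no filter on dim probes both passed the threshold, with differences of 0.89 (limma adjusted p = 1.44e-06) and 0.54 (limma adjusted p = 0.00516). The 0.54 of miR-125a-5p also averages in its 18-base probe, which lay below the floor on every array but siLin28a replicate 2. In that fit a trend shared by all 577 names set the spread. Those names include dim ones at the floor on all 4 arrays, such as the 3 paralogs, which have no spread between replicates. The adjusted p of this fit are therefore descriptions only.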

How the data were processed

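Per the file headers, the 4 deposited scanner files (array design 019119) were made with Agilent Feature Extraction 9.5.1.1, against 9.5.3.1 per the submitters' processing notes. Their processed and total gene signals are intensity values on a linear scale, with background subtracted by the authors' software. The deposited series table, also intensity, lay within 5% of the scanner files' total gene signals for 100% of those above 10.

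Here, outlier spots (3.21% to 4.32% of 11540) were left out, spots of each of 1712 probes were averaged, and signals were scaled to the 75th percentile over 425 probes that were well above background on each of the 4 arrays. The scaled signals got a floor of 0.0948 before the log2 step. Probes with at least 50% of their spots well above background on each array of either group were used, and these 477 were averaged by miRNA. limma 3.58.1 in R 4.3.3 (lmFit, eBayes with a trend) compared the groups in a two-sided test. P-values were adjusted by Benjamini-Hochberg over 231 miRNAs, at a threshold of 0.05. Degrees of freedom were 2 (residual) and 1.64 (prior). The steps were tested on simulated data. Groups and replicate numbers came from the sample titles. Scaling, background, filter, floor, summary, test, replicate block and omitted arrays were varied.

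The members and lists were chosen with earlier results of these data known. All 7 members are named, with array miRNAs of the same seed or within 10 kb, opposite strands, let-7 guides, the 3 nearest profiles of each guide, and cell type markers.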

Additional observations from a re-analysis of the deposited data

How the results depend on the processing

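The count of miRNAs called higher, 2 as reported, was 0 with scaling over all probes, 0 with normexp, 0 with normexp fitted without outlier spots, 0 with probes well above background on all arrays and 0 with the floor at 2 times its value. It was 8 with the lower floor, 8 with total gene signal, 6 with the authors' deposited table and 40 with no filter on dim probes, where 8 were called lower. Leaving out 1 array gave 0 to 10 called higher (0 without either siGFP array, 10 without siLin28a replicate 1, 7 without siLin28a replicate 2) and 0 to 1 called lower. Such fits take the lone array to vary like those of the other group. For miR-99b the difference was -0.0069 with normexp (adjusted p = 0.997), 0.89 with no filter (adjusted p = 1.44e-06) and 0.70 to 1.08 with 1 array left out, and its adjusted p ranged from 1.44e-06 to 0.997 over 14 alternatives. For miR-125a-5p it was -0.031 with normexp, 0.54 with no filter (adjusted p = 0.00516) and 0.60 to 1.29 with 1 array left out, and its adjusted p ranged from 0.00516 to 0.562. In both, the other 13 alternatives kept the sign and no further one passed the threshold. Beyond the floored probe values and the normexp medians and offset given above, the cause of these changes was not tested. For miR-125a-3p the difference stayed positive in all 14, at 0.015 to 0.50, with 0.13 to 0.46 when 1 array was left out, and none passed. Scaling over all probes moved the median of all miRNAs by -0.16 and no scaling by 0.19. With these, miR-99b was at 0.72 and 1.09 and miR-125a-5p at 0.77 and 1.15. The unscaled difference of total gene signal for miR-125a-3p, 50.6 units, was 22.7 when scaled. In a fit with a replicate block, the differences were those reported, with adjusted p of 0.0555 for both guides and 0.265 for miR-125a-3p, and 2 miRNAs called. Same-numbered arrays deviated together (r = 0.706 over 231 miRNAs), and the labels do not say what a number marks. With 2 pairs, whether a number marks a shared batch was not tested. Signal near background limits miR-125a-5p, whose siGFP values lay close to the floor, and the 4 members that were not tested.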
